A study of Mus musculus with 4 samples.

Results

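Bile acid synthesis and uptake was followed through 10 of the 27179 genes counted, chosen by symbol: the sterol enzymes Cyp7a1, Cyp8b1, Cyp27a1, Cyp7b1 and Akr1d1, the conjugating enzymes Slc27a5 and Baat, the uptake carrier Slc10a1, and the nuclear receptors Nr1h4 and Nr0b2. All 10 were found and passed the filter on low counts. The libraries were bulk RNA sequencing of total liver RNA, labelled as from male wild-type C57BL/6 mice (C57BL/6J in the protocol). In 2 libraries the mice had been fasted overnight with free access to water, and in 2 non-fasted libraries food and water had been available throughout. The groups follow the sample titles, whereas the treatment field of the labels gives fasting for all 4 libraries. The labels give the mice as age-matched without stating an age, and do not tie a library to a mouse.

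Hepatocytes make bile acids from cholesterol. In the classical route Cyp7a1 adds the first hydroxyl group to the ring and Cyp8b1 sets how much cholic acid is made, while Cyp27a1 and Cyp7b1 serve the alternative route that begins at the side chain. The acids are then joined to taurine, exported into bile, reabsorbed in the gut and taken up again from portal blood, and the nuclear receptor FXR (Nr1h4) senses them and raises Nr0b2, a repressor of Cyp7a1.

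All 10 genes were higher in the fasted libraries when libraries were scaled by the median of ratios over the tested genes, from 2.24-fold (Cyp7a1) to 5.41-fold (Nr1h4), on a scale where 37.2% of the 15470 genes tested were higher and 45.0% lower. The 14 hepatocyte markers were also all higher there, with a median log2 fold change of 1.77 against 1.74 for the 10 genes. When the libraries were scaled to those 14 markers instead, 3 of the 10 stayed higher in the fasted libraries (Nr1h4, Cyp8b1 and Cyp7b1), beside 4.63% of all genes tested. On that scale 4 were lower (Cyp7a1, Akr1d1, Nr0b2 and Slc10a1), beside 90.2% of all genes, and 3 did not pass the test (Cyp27a1, Slc27a5 and Baat). Nr1h4 was then 1.59-fold higher and Cyp7a1 1.52-fold lower in the fasted libraries. Scaled to total counts alone, 10 of the 10 were higher, beside 22.9% of all genes. The test was edgeR's quasi-likelihood test with Benjamini-Hochberg adjustment over all genes tested and a threshold of 0.05.

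The 2 groups differed in more than their label. Total counts were 13528015 and 13541405 in the fasted libraries and 36943535 and 36975921 in the non-fasted libraries. The 14 hepatocyte markers, among them Alb, took 14.1% of the counts in each fasted library and 5.69% and 5.73% in the non-fasted libraries. The 16 markers of placental trophoblast summed to 6 and 8 counts in the fasted libraries, where 13 and 11 of them were at 0. In the non-fasted libraries they summed to 2559652 and 2580232, 6.92% and 6.98% of all counts, with Synb at 0 in all 4 libraries. Xist, the RNA that coats the silenced X of female cells, had 2 and 1 counts when fasted and 25772 and 26316 when non-fasted, which goes against the male label there. The summed shares of cholangiocyte, stellate cell and fibroblast, endothelial and Kupffer cell markers were also higher in both non-fasted libraries, with stellate cell and fibroblast markers at 0.0205% and 0.0225% in the fasted and 0.326% in each non-fasted library. Kupffer markers did not move together, since Csf1r, which trophoblast also expresses, had a log2 fold change of -2.99 and the other 6 rose, among them Clec4f by 1.99 (median-of-ratios scaling). The libraries labelled non-fasted thus go against their tissue and sex labels in part, and no comparison can leave them out, since they are the whole group. Fewer hepatocytes and less RNA per hepatocyte cannot be told apart in bulk RNA. Fasting, the makeup of the samples and the sex that Xist points to cannot be told apart either, for any gene below.

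The median log2 fold change of all tested genes was -0.13 by the median of ratios, -0.63 on total counts and -1.90 on the hepatocyte-marker scale, so that passing from the first to the last lowered this median by 1.77. Genes at 0 in both fasted libraries shifted by less. The 10 genes had medians of 1.74, 1.24 and -0.03 on these scales. Each gene is therefore given below on the first and the last of them.

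The 2 libraries of a group lay close together. The common biological coefficient of variation was 0.00988, and the squared differences between the libraries of a group were 1.12 (fasted) and 1.13 (non-fasted) times those of counting noise per gene, so both were kept. Nothing in the labels places them in separate mice, so a p-value below rests on the spread of 2 libraries per group alone, and that spread may be technical. With a coefficient of variation fixed at 0.4, Cyp7a1, Akr1d1 and Nr0b2 no longer passed the test on the median-of-ratios scale (edgeR likelihood ratio test, adjusted p = 0.115, 0.104 and 0.0822), and on the hepatocyte-marker scale 0 of the 10 passed it in that test, with 0 at an unadjusted p under 0.05.

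**Figure D1:**
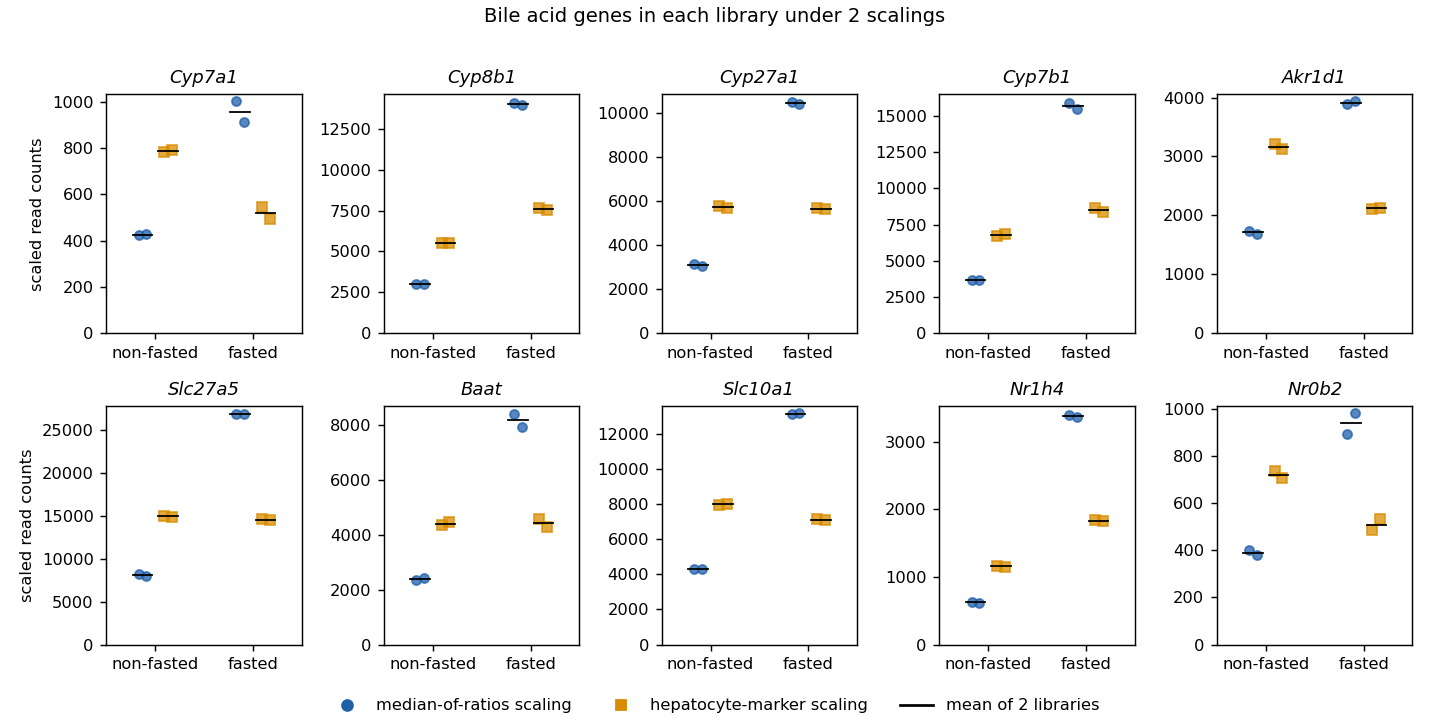
Scaled read counts of the 10 genes in each of the 4 libraries (linear axes from 0, points are libraries, black bars the mean of 2). Circles are scaled by the median of ratios and squares to 14 hepatocyte markers. All circles are higher in the fasted libraries, whereas the squares are higher there for Cyp8b1, Cyp7b1 and Nr1h4 and lower for Cyp7a1, Akr1d1, Slc10a1 and Nr0b2.

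The promoters of Cyp8b1 and Nr0b2 are shown because these 2 genes stand on opposite sides of 0 on the hepatocyte-marker scale. Cyp8b1 lies within the range of the markers themselves there (-0.16 to 0.50). Of the 10 genes, 6 were matched to a RefSeq promoter on GRCm38.p6 (Cyp27a1, Nr0b2, Akr1d1, Cyp8b1, Nr1h4 and Slc10a1). The 100 bases before the start site are printed in the direction of the gene, and capitals mark the letters CAAAGTCCA, a core of sites of the hepatocyte factor HNF4, and TCAAGG or CCAAGG, cores of sites of the orphan receptor LRH-1 (Nr5a2). Cyp8b1 lies on the minus strand and the window is chr9:121916306-121916405, and the Nr0b2 window is chr4:133553276-133553375 on the plus strand.
Cyp8b1: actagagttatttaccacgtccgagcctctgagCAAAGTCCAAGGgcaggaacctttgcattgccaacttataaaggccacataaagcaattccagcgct
Nr0b2: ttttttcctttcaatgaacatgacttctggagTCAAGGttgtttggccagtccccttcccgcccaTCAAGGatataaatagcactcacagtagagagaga

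In Cyp8b1 the HNF4 core spans -67 to -59 and the CCAAGG overlaps its end, at -61 to -56, with TATAAA at -31 to -26. In Nr0b2 the TCAAGG letters stand at -68 to -63 and -35 to -30, the second just before the TATAAA at -28 to -23. Searched on both strands, CAAAGTCCA was held by 0.475% of 32851 RefSeq promoters (250 bases before to 50 after the start), TCAAGG or CCAAGG by 32.6% and TATAAA by 13.6%. Akr1d1 and Slc10a1 also held an NR5A2 core on the reverse strand, at -213 to -208 and -162 to -157. Slc10a1 had a further RefSeq promoter, which held neither an HNF4 nor an NR5A2 core. These are matches of letters, not measured sites.

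Cyp7a1 (Entrez 13122), the rate-limiting enzyme of the classical route, had the fewest counts per length of the 10 genes. Here and below the 2 fasted libraries are given first. Raw counts of Cyp7a1 were 511 and 462 against 840 and 840. After median-of-ratios scaling these were 957 ± 65.6 (SD, n = 2) and 427 ± 0.216 normalised counts, a log2 fold change of 1.17 ± 0.056 (SE, adjusted p = 7.9e-08, edgeR). Scaled to hepatocyte markers the order turned, with 545 and 492 against 785 and 792 counts and a log2 fold change of -0.60 ± 0.055 (adjusted p = 3.1e-08, edgeR). The groups did not overlap on either scale, and the fasted libraries lay on opposite sides of the non-fasted ones. Of all genes tested, 37.2% were called higher and 45.0% lower by the median of ratios, and 4.63% and 90.2% on the hepatocyte-marker scale. With calls this common, a lack of overlap, here and below, does not set a gene apart.

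Cyp8b1 (Entrez 13124), the sterol 12-alpha-hydroxylase that makes the cholic acid branch, was higher in the fasted libraries on every scale. Raw counts were 7154 and 7062 against 5904 and 5868, although the fasted libraries were the shallower ones. Normalised by the median of ratios the means were 13990 ± 90.5 and 2991 ± 11.4 (SD, n = 2), 4.68-fold apart (log2 2.23 ± 0.027 SE, adjusted p = 8.3e-12, edgeR). Scaled to the markers, the log2 fold change was 0.46 ± 0.029 (adjusted p = 3.6e-10, edgeR), with 7629 and 7520 against 5515 and 5532 counts. Cyp7a1 and Cyp8b1, consecutive hydroxylases of the classical route, thus moved apart on that scale.

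Cyp7b1 (Entrez 13123), the oxysterol 7-alpha-hydroxylase of the alternative route, followed Cyp8b1. It had 8083 and 7860 raw counts against 7184 and 7231. The log2 fold change was 2.10 ± 0.027 by the median of ratios (adjusted p = 1.2e-11, edgeR) and 0.33 ± 0.030 on the hepatocyte-marker scale (adjusted p = 2.8e-08, edgeR). Both fasted libraries lay above both non-fasted ones on each scale.

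Cyp27a1 (Entrez 104086), the mitochondrial side-chain hydroxylase that serves both routes, kept step with the hepatocyte markers. Raw counts were 5328 and 5276 against 6201 and 6017, and the log2 fold change by the median of ratios was 1.75 ± 0.028 (adjusted p = 4.3e-11, edgeR). Scaled to the markers, the libraries had 5681 and 5618 against 5792 and 5673 counts. These groups overlapped, and the log2 fold change of -0.02 ± 0.030 did not pass the test (adjusted p = 0.499, edgeR).

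Akr1d1 (Entrez 208665), the 5-beta-reductase that bends the sterol ring, moved with Cyp7a1. Its raw counts were 1976 and 1999 against 3430 and 3309. By the median of ratios it was higher in the fasted libraries (log2 1.19 ± 0.032, adjusted p = 1.3e-09, edgeR), and on the hepatocyte-marker scale it was 1.49-fold lower, with 2107 and 2129 against 3204 and 3120 counts (log2 -0.58 ± 0.032, adjusted p = 5.8e-11, edgeR). Neither scale left any overlap between the groups.

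The conjugating enzymes stayed level with the hepatocyte markers. Slc27a5 (Entrez 26459), the bile acid CoA ligase, had 13688 and 13626 raw counts against 16070 and 15807, with a log2 fold change of 1.73 ± 0.017 by the median of ratios (adjusted p = 2.5e-12, edgeR). On the hepatocyte-marker scale it was -0.04 ± 0.021 (adjusted p = 0.0829, edgeR), a difference of 1.03-fold that did pass with the deviance written out exactly (adjusted p = 0.0177) and without non-fasted replicate 2 (adjusted p = 0.0320). Baat (Entrez 12012), which joins the activated acid to taurine, had 4287 and 4035 against 4665 and 4743 raw counts. Its log2 fold change was 1.78 ± 0.034 by the median of ratios (adjusted p = 1.1e-10, edgeR) and 0.01 ± 0.033 on the hepatocyte-marker scale (adjusted p = 0.853, edgeR). There the fasted libraries of Baat, with 4571 and 4297 counts, lay on either side of the non-fasted ones, with 4358 and 4472.

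Slc10a1 (Entrez 20493), the sodium-dependent carrier that takes conjugated bile acids up from portal blood, had 6688 and 6686 raw counts against 8517 and 8506. The log2 fold change was 1.61 ± 0.025 by the median of ratios (adjusted p = 3.0e-11, edgeR). Scaled to the markers it was -0.16 ± 0.028 (adjusted p = 4.4e-05, edgeR), with 7132 and 7120 against 7956 and 8019 counts, 1.12-fold lower in the fasted libraries. That is a small step beside the spread of the markers themselves, the lowest of which, Fgb, also had -0.16.

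Nr1h4 (Entrez 20186), the bile acid receptor FXR, had the largest difference of the 10 genes on both scales. It had 1728 and 1709 raw counts against 1250 and 1212, and the normalised means were 3382 ± 17.4 and 625 ± 13.3 (SD, n = 2). The log2 fold change was 2.43 ± 0.033 by the median of ratios (adjusted p = 1.5e-11, edgeR) and 0.66 ± 0.035 on the hepatocyte-marker scale (adjusted p = 2.9e-11, edgeR). On the latter the fasted libraries had 1843 and 1820 counts, against 1168 and 1143.

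Nr0b2 (Entrez 23957), the repressor SHP and a known target of FXR, went the other way from Nr1h4 on the hepatocyte-marker scale. Raw counts were 456 and 500 against 788 and 750. By the median of ratios it was higher in the fasted libraries (log2 1.27 ± 0.061, adjusted p = 7.5e-08, edgeR), and on the hepatocyte-marker scale it was 1.42-fold lower (log2 -0.50 ± 0.056, adjusted p = 4.1e-07, edgeR). The receptor and its target were thus both higher in the fasted libraries by the median of ratios, and on the hepatocyte-marker scale they stood on opposite sides.

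**Figure D2:**
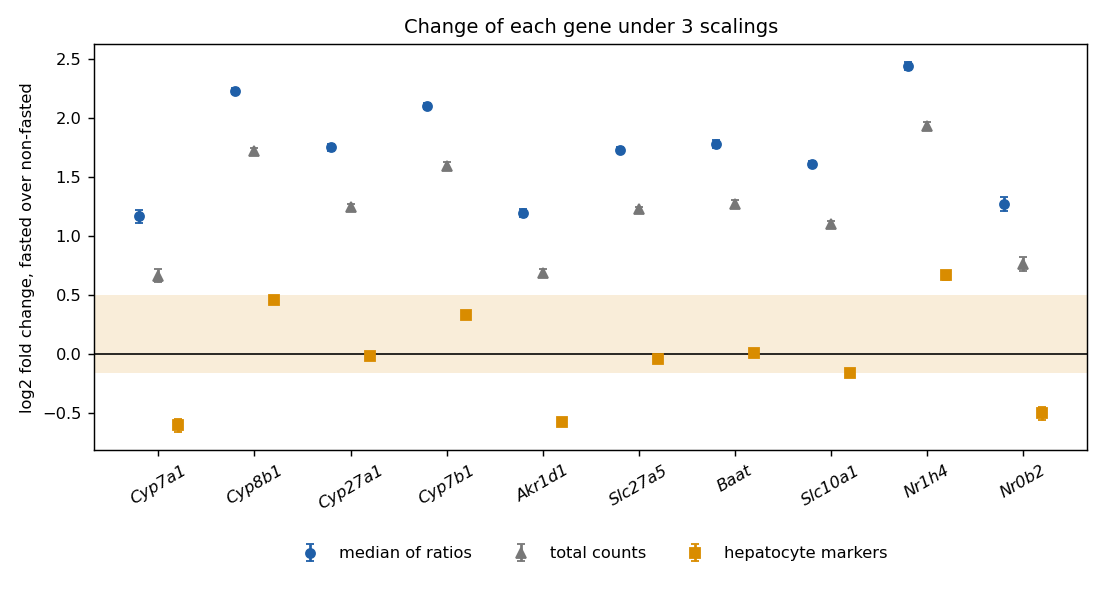
Log2 fold change (fasted relative to non-fasted) of the 10 genes, each with its standard error (bars, often smaller than the symbol), scaled by the median of ratios, to total counts or to hepatocyte markers. The shaded band is the range of the 14 hepatocyte markers on their own scale, -0.16 to 0.50. Nr1h4 lies above the band, and Cyp7a1, Akr1d1 and Nr0b2 lie below it, as Slc10a1 narrowly does. The median of all tested genes on the hepatocyte-marker scale was -1.90.

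The 14 hepatocyte markers did not keep one ratio, which sets a measure for these differences. On their own scale they ran from -0.16 (Fgb) to 0.50 (Apoa2), with the apolipoproteins Apoa1, Apob and Apoh at 0.36, 0.37 and 0.38. Of the 10 genes, 1 lay above that range (Nr1h4), 4 below it (Cyp7a1, Akr1d1, Nr0b2 and, narrowly, Slc10a1) and 5 within it, Cyp8b1 and Cyp7b1 included. The median of all tested genes on this scale was -1.90, with 90.2% called lower and 4.63% higher. Lying below the range therefore does not set these 4 genes apart. The positions of Cyp8b1 and Cyp7b1 therefore differ from the middle of the marker list but not from all of its members. The part of sample makeup in these differences was not tested.

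Ratios of 2 genes within a library need no scaling between libraries. Cyp8b1 had 14.0 and 15.3 counts per count of Cyp7a1 in the fasted libraries against 7.03 and 6.99, a 2.09-fold difference. For Cyp7b1 over Cyp7a1 the ratios were 15.8 and 17.0 against 8.55 and 8.61 (1.91-fold), and for Cyp27a1 over Cyp7a1 they were 10.4 and 11.4 against 7.38 and 7.16. Cyp7a1 thus had fewer counts beside each of the other 3 hydroxylases in both fasted libraries. Nr0b2 had 0.264 and 0.293 counts per count of Nr1h4 against 0.630 and 0.619, 2.25-fold more in the non-fasted libraries. Baat over Slc27a5 was 0.313 and 0.296 against 0.290 and 0.300, and these overlapped (two-sided exact permutation test, p = 0.667). For the other 4 ratios the exact permutation p was 0.333, which is the smallest that 2 libraries against 2 allow.

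Set against albumin (Alb), the most counted hepatocyte marker, the 10 genes took the same directions as on the hepatocyte-marker scale, with no test. Alb is itself among the markers that set that scale, and its own log2 fold change there was -0.01. The Alb ratios therefore nearly repeat that scale and are not a separate check of it. The directions of Cyp8b1 and Cyp7b1 depend on the marker chosen, since both lay within the range of the markers. Per 1000 Alb counts, Cyp7a1 had 0.551 and 0.498 counts against 0.788 and 0.792. Akr1d1 had 2.13 and 2.15 against 3.22 and 3.12, and Nr0b2 had 0.491 and 0.539 against 0.739 and 0.707. These 3 were lower in both fasted libraries, as was Slc10a1, with 7.21 and 7.20 against 7.99 and 8.02. Cyp8b1 had 7.71 and 7.61 against 5.54 and 5.53, Cyp7b1 had 8.71 and 8.47 against 6.74 and 6.81, and Nr1h4 had 1.86 and 1.84 against 1.17 and 1.14, all higher in both fasted libraries. Cyp27a1 (5.74 and 5.68 against 5.81 and 5.67) and Baat (4.62 and 4.35 against 4.37 and 4.47) overlapped between the groups, and Slc27a5 was slightly lower, with 14.8 and 14.7 against 15.1 and 14.9.

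**Figure D3:**
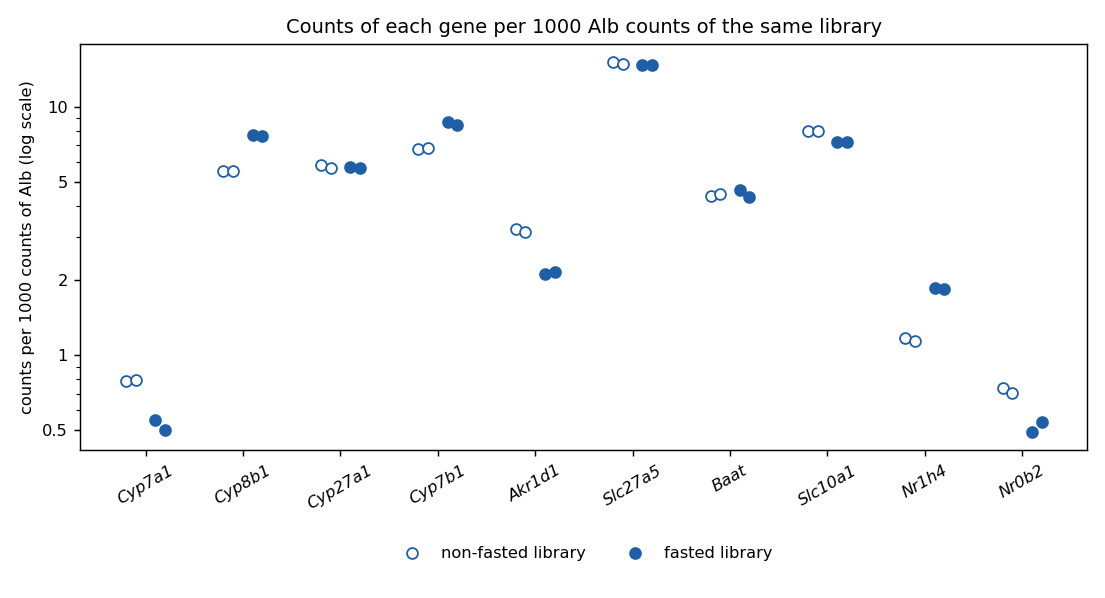
Raw counts of each gene per 1000 Alb counts of the same library, on a log axis, with open points for the 2 non-fasted and filled points for the 2 fasted libraries. Cyp8b1, Cyp7b1 and Nr1h4 are higher and Cyp7a1, Akr1d1, Slc10a1 and Nr0b2 lower in the fasted libraries, while Cyp27a1 and Baat overlap.

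Levels can be set side by side between genes per kilobase of exon (normalised counts by the median of ratios, over lengths from a GRCm38 annotation that may differ from the one used for counting). In the fasted libraries Slc27a5 led with 11536 ± 6.09 per kilobase (SD, n = 2), followed by Cyp7b1 (7243 ± 124), Cyp8b1 (7174 ± 46.4), Slc10a1 (5985 ± 14.8), Cyp27a1 (5515 ± 23.5) and Baat (4219 ± 169). Nr1h4 (1469 ± 7.54), Akr1d1 (1449 ± 15.7), Nr0b2 (831 ± 56.3) and Cyp7a1 (229 ± 15.7) came last. The neighbours Cyp7b1 and Cyp8b1 differed by less than their spread, and Nr1h4 and Akr1d1 by less than the sum of their SDs. In the non-fasted libraries Slc27a5 was again first (3476 ± 38.8) and Cyp7a1 last (102 ± 0.0519), but Slc10a1 (1967 ± 0.80) stood above Cyp7b1 (1691 ± 8.65), Cyp27a1 (1641 ± 34.1), Cyp8b1 (1534 ± 5.85) and Baat (1231 ± 15.1). There Nr1h4 (272 ± 5.79) stood below Nr0b2 (345 ± 11.9) and Akr1d1 (634 ± 15.8), whereas it stood above both in the fasted libraries.

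The rest of the pathway was counted through 50 further genes, of which 46 passed the filter on low counts (not Ch25h, Slc51a, Slc51b and Fgf15). By the median of ratios 37 were higher and 4 lower in the fasted libraries and 5 did not pass the test, with a median log2 fold change of 1.72, beside 37.2% higher and 45.0% lower among all genes tested. On the hepatocyte-marker scale 19 were higher, 23 lower and 4 not past the test, with a median of -0.05, beside 4.63% and 90.2% of all genes.

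Of the 14 other synthesis genes tested, 12 were higher by the median of ratios (37.2% of all genes), and 5 were higher and 8 lower on the hepatocyte-marker scale (4.63% and 90.2% of all genes). Slc27a2, a peroxisomal acyl-CoA synthetase that also activates bile acid precursors, was the highest on both scales, at 2.88 and 1.10 (log2), with 24128 and 24069 raw counts against 12706 and 12738. Hsd3b7, which oxidises the ring after 7-alpha-hydroxylation, had 1.69 and -0.08. Cyp2c70, the enzyme behind the muricholic acids of mice, had 0.66 and -1.11, with 4999 and 5105 raw counts against 12430 and 12312. Dhrs9, a short-chain dehydrogenase, was the exception on the median-of-ratios scale, at -4.55 (-6.31 on the hepatocyte-marker scale), with 30 and 24 against 2404 and 2496 raw counts. Cyp46a1, the cholesterol 24-hydroxylase, had -0.23 by the median of ratios and did not pass the test (adjusted p = 0.314, edgeR), but was lower on the hepatocyte-marker scale (-2.00, adjusted p = 7.2e-08, edgeR).

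Uptake carriers other than Slc10a1 did not keep one direction on the hepatocyte-marker scale. All 4 were higher by the median of ratios (37.2% of all genes). Scaled to the markers, Slco1a4, an organic anion carrier, was 1.57 (log2) higher in the fasted libraries, with 1030 and 955 raw counts against 393 and 365, and Slco1b2 was 0.28 higher. Slco1a1 and Slco2b1 were lower there, at -0.21 and -0.38.

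The export genes did not keep one direction on the hepatocyte-marker scale either. Abcb11, the bile salt export pump, had 8776 and 8791 raw counts against 14583 and 14458, with a log2 fold change of 1.23 by the median of ratios (adjusted p = 3.5e-11, edgeR) and -0.54 on the hepatocyte-marker scale (adjusted p = 3.4e-12, edgeR). Abcb4, the phosphatidylcholine flippase, and Abcg5 and Abcg8, the sterol export pair, were higher on both scales, at 0.97, 1.09 and 0.92 on the second. Abcc2 and Abcc3, carriers of conjugated organic anions, were at 0.57 and 0.77 there. On the hepatocyte-marker scale Abcb11 was thus lower, beside 90.2% of all genes, and the exporters of phospholipid and sterol were higher, beside 4.63%. Atp8b1, an aminophospholipid flippase, was lower on both scales (-1.53 and -3.30), and Abcc4 was not past the test by the median of ratios (-0.27, adjusted p = 0.174, edgeR) but lower on the hepatocyte-marker scale (-2.04, adjusted p = 8.4e-09, edgeR).

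Among the 18 other regulators tested, 15 were higher by the median of ratios (37.2% of all genes), and 7 were higher and 8 lower on the hepatocyte-marker scale (4.63% and 90.2% of all genes). Nr1i3, the receptor CAR, had the largest rise, at 3.99 and 2.22 (log2) on the 2 scales, with 2793 and 2625 raw counts against 638 and 684. Fgfr4, the hepatic receptor for the gut hormone FGF15, had 2.15 and 0.38, and its co-receptor Klb had 1.84 and 0.07, the latter not past the test (adjusted p = 0.363, edgeR). Nr5a2 (LRH-1), an activator of Cyp7a1 and Cyp8b1, had 1.81 and 0.04, the latter not past the test either (adjusted p = 0.428, edgeR). Hnf4a, whose core letters stand in the Cyp8b1 promoter shown above, had 2.06 and 0.29.

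Some genes of the pathway were not higher by the median of ratios. Gpbar1, the membrane bile acid receptor TGR5, had 0 counts in both fasted libraries and 29 and 24 in the non-fasted libraries, at least 4.56-fold lower in the fasted libraries by the median of ratios, with a floor of 3 counts over the group (adjusted p = 0.00069, edgeR). Fabp6, the ileal bile acid binding protein, had 0 and 0 against 31 and 40 counts, at least 6.11-fold lower (adjusted p = 0.00054, edgeR). Slc10a2, the ileal carrier, had 49 and 51 against 217 and 221 counts and a log2 fold change of -0.18 that did not pass the test (adjusted p = 0.288, edgeR), against -1.95 on the hepatocyte-marker scale (adjusted p = 1.9e-09, edgeR). Nr1h2 and Mafg, which are expressed in many tissues, were not past the test either by the median of ratios, at 0.05 and -0.03, but were lower on the hepatocyte-marker scale, at -1.72 and -1.80 (adjusted p = 1.8e-15 and 1.9e-15, edgeR). The trophoblast counts given above stand in the same non-fasted libraries, and their part in the values of these genes, Dhrs9 and Atp8b1 was not tested.

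**Figure D4:**
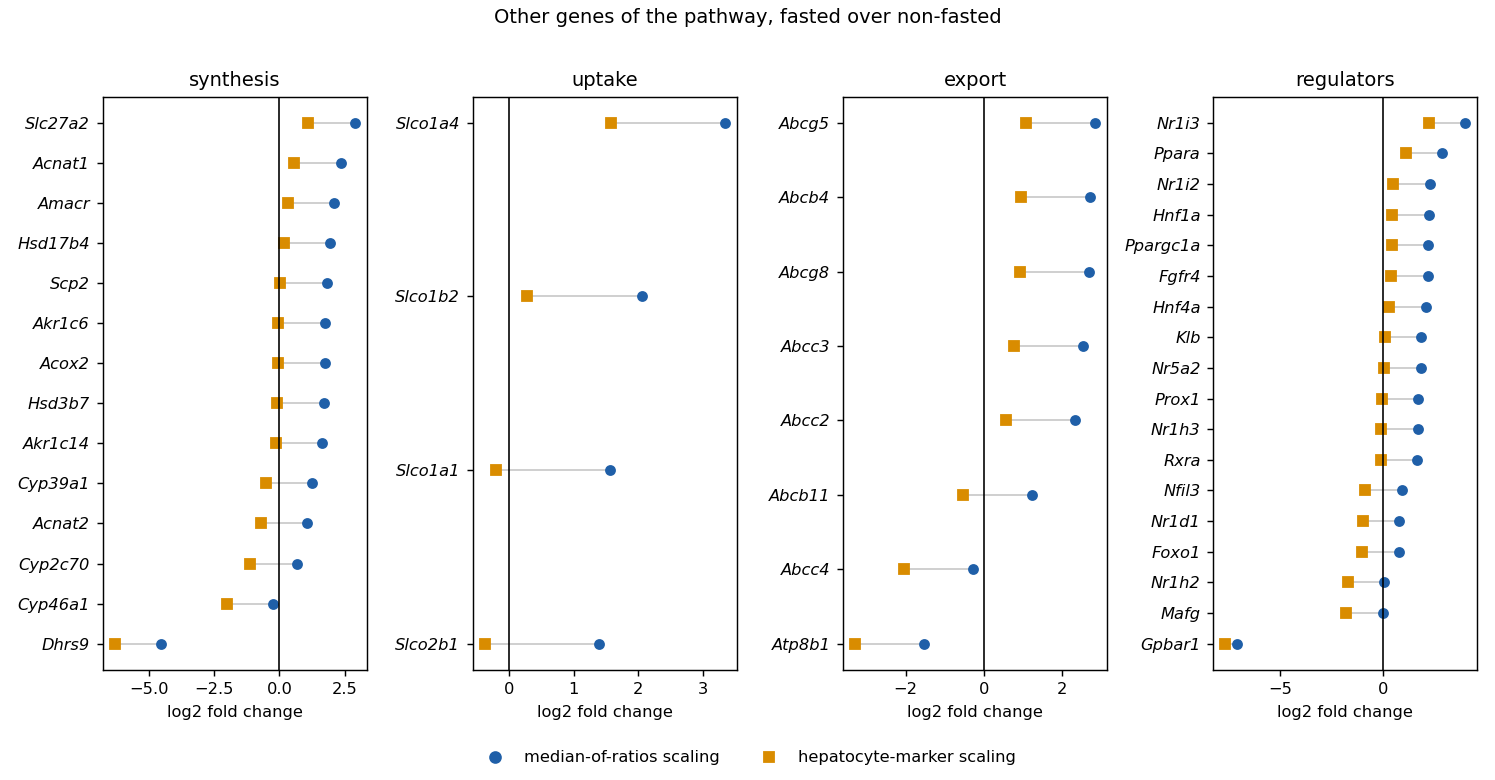
Log2 fold changes (fasted relative to non-fasted) of the tested synthesis, uptake, export and regulator genes other than the 10, by the median of ratios (circles) and on the hepatocyte-marker scale (squares), ordered by the latter within each list. Axis ranges differ between panels. Most circles lie above 0 while the squares lie on both sides, with Slc27a2, Slco1a4, Abcg5 and Nr1i3 highest.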

How the data were processed

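Per the labels, total liver RNA was isolated with the SV Total RNA Isolation System and sequenced in 4 libraries, 2 in each group. The authors deposited raw counts per gene by Entrez identifier, with no normalization. Tools named in the submitters' processing notes are DESeq2 1.32.0, featureCounts, STAR, Trimmomatic, MultiQC and FastQC, and the build is GRCm39. The sources used here do not give the other versions, strandedness or how multi-mapping reads were handled, so overlapping or near-identical genes (Akr1c6 and Akr1c14, Acnat1 and Acnat2, Slco1a1 and Slco1a4) carry that doubt. 1904 of 27179 identifiers had no symbol in the table used.

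The main test used edgeR 4.0.16 under R 4.3.3 (filterByExpr defaults, median-of-ratios scaling over the tested genes, quasi-likelihood test, two-sided, Benjamini-Hochberg adjustment over 15470 genes at 0.05). Hepatocyte-marker scaling takes the median of ratios over 14 marker genes alone. Normalised counts are counts divided by the library's size factor. Standard errors were derived from the fold change and the test statistic. The alternatives were TMM, upper quartile and total counts, 2 other filters, DESeq2 1.42.0, limma-voom (limma 3.58.1), coefficients of variation fixed at 0.2 and 0.4, a replicate block, a minimum fold of 2, thinning all libraries to one total, omission of each library or of the 20 most abundant genes, and, added after seeing the data, other deviance settings and the same checks on the hepatocyte-marker scale. Libraries with the same replicate number did not deviate together (correlation -0.0053). Differences so near counting noise cannot show whether the numbers pair libraries, and the main test used no pairing. The test was checked on simulated counts with the fitted common spread, where a small random set of genes was changed up or down. That check does not cover the wide differences in sample makeup seen here, nor a larger spread between mice. A floor of 3 counts stands for a count of 0 and covers counting error only.

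All 10 genes were named. Of the 50 others, the synthesis and regulator lists are counted on both scales and the uptake list by the median of ratios. The export and ileal lists are not counted, but each of their tested genes is named. Genes named went against most of their list, had its largest rise or fall, or are Hsd3b7, Cyp2c70, Abcb11, Nr5a2, Fgfr4 or Klb. The few others were chosen after their values were seen. Members and lists were chosen with earlier results of these data known. Promoter sequences are from RefSeq on GRCm38.p6, so no gene coordinates of the counting build are given. Plots were made in Python 3.11.15 (matplotlib 3.10.9).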

Additional observations from a re-analysis of the deposited data

How the results depend on the processing

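Scaling decided the direction or the call of most values. Of the 10 genes, 10 were higher under every alternative run except a fixed coefficient of variation of 0.4, which left 7, and the hepatocyte-marker scale. Scaled to those markers, 3 were higher and 4 lower, and the log2 fold changes of Cyp7a1 (-0.60), Akr1d1 (-0.58), Slc10a1 (-0.16) and Nr0b2 (-0.50) reversed. Those of Cyp27a1 (-0.021) and Slc27a5 (-0.039) changed sign but did not pass the test there. On that scale, a fixed coefficient of variation of 0.2 left 1 higher (Nr1h4) and 1 lower (Cyp7a1), and one of 0.4 left 0 and 0 (edgeR likelihood ratio test, 0 of the 10 at an unadjusted p under 0.05). Leaving out each library in turn gave Baat -0.040 to 0.049 there, and 4 to 5 genes lower.

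Of the other pathway genes, 19 were higher and 23 lower on the hepatocyte-marker scale and 9 lower on total counts, and 2 were lower with at least 1 CPM in 2 libraries or after thinning, where fewer genes were tested. Of all tested genes, 717 were higher and 13949 lower on the hepatocyte-marker scale, 3550 higher on total counts, 2273 higher and 3990 lower with a minimum fold of 2, and 3714 (0.2) or 1648 (0.4) higher and 3691 (0.4) lower with a fixed coefficient of variation. Leaving out a library gave 5192 to 5311 higher and 6066 to 6288 lower. With a replicate block 5743 genes were higher and 6929 lower (5756 and 6965 without), and 10 of the 10 genes were higher. On the hepatocyte-marker scale the block moved Slc27a5 past the test and changed no other call of the 10. The edgeR version used has the legacy setting as its default, so that alternative equals the values reported.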
